A study of Mus musculus with 23 samples.

Results

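Elastic fibre genes were followed through lungs of Rarres1 knockout (KO) and wild-type (WT) mice. The set has 10 genes, Eln, Fbn1, Fbn2, Mfap4, Fbln5, Fbln1, Fbln2, Lox, Loxl1 and Fn1, taken by symbol from the 24411 genes of the deposited tables. All 10 had a row in both tables and passed the filter on low counts in each of the 12 comparisons fitted. Total RNA of lung was sequenced in 23 libraries of 7 groups, from untreated C57BL/6 mice kept in a pathogen-free barrier. At embryonic day 19.5 (E19.5) there were 3 KO and 3 WT embryos, for which the labels give no sex. At 10 months there were 3 KO and 3 WT males. At 18 months, again from males, there were 3 lung tumours of KO animals 1, 3 and 6, the non-tumour lungs of 5 KO animals (1, 2, 3, 6 and 7) and the lungs of 3 WT animals. The labels do not describe the KO allele. The titles number the replicates as individual embryos or males and give no litter or batch.

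Elastic fibres give lung tissue its recoil. Cells secrete tropoelastin, which is laid on a scaffold of fibrillin microfibrils with the help of fibulins, and lysyl oxidases then cross-link it into an insoluble core. In mouse lung this matrix is made mainly by mesenchymal cells, among them myofibroblasts and smooth muscle, from late gestation through the weeks when alveolar walls form, and the finished fibres are long-lived.

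Libraries held 23661181 to 46566642 counts. Rarres1 stood at 0 to 0.0300 FPKM (fragments scaled by transcript length and library size) in KO libraries and at 0.780 to 1.92 FPKM in WT libraries, so genotype followed the labels. Lung epithelial markers were abundant throughout, with a summed level of at least 24874 FPKM. Tumour 6 had the highest level of 9 of the 10 genes among the tumours, and KO non-tumour lung 6 the highest level of 4 of them among its group, so calls that turn on either are also given without it. Levels below are the authors' FPKM, and means are given with the SD. Fold changes are log2 values from the counts with their standard error, and a gene is called at an adjusted p under 0.05 in edgeR's quasi-likelihood test with Benjamini-Hochberg adjustment over all genes tested. In bulk lung, fewer cells of a type and less RNA per cell cannot be told apart.

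Late fetal and adult lung were furthest apart. At 10 months 8 of the 10 genes were lower than at E19.5 in KO lungs and 9 of 10 in WT lungs, with the strongest falls in Fbn2 and in Eln, which encodes tropoelastin. In adult lung Eln was also lower in KO than in WT, at 26.6 ± 4.12 FPKM in KO and 78.6 ± 29.3 FPKM in WT at 10 months (n = 3 each), and at 28.6 ± 7.02 FPKM in KO (n = 5) and 49.2 ± 3.28 FPKM in WT (n = 3) at 18 months. Eln was called at neither age alone, and was called for the mean of both effects, a test added after the values at both ages were seen. Fbn1, for fibrillin-1, was called lower in KO at 10 months. That call was lost when any library but KO lung 3 was left out, and in several other fits. No member was called between KO and WT at E19.5, or between tumour and KO non-tumour lung.

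**Figure D1:**
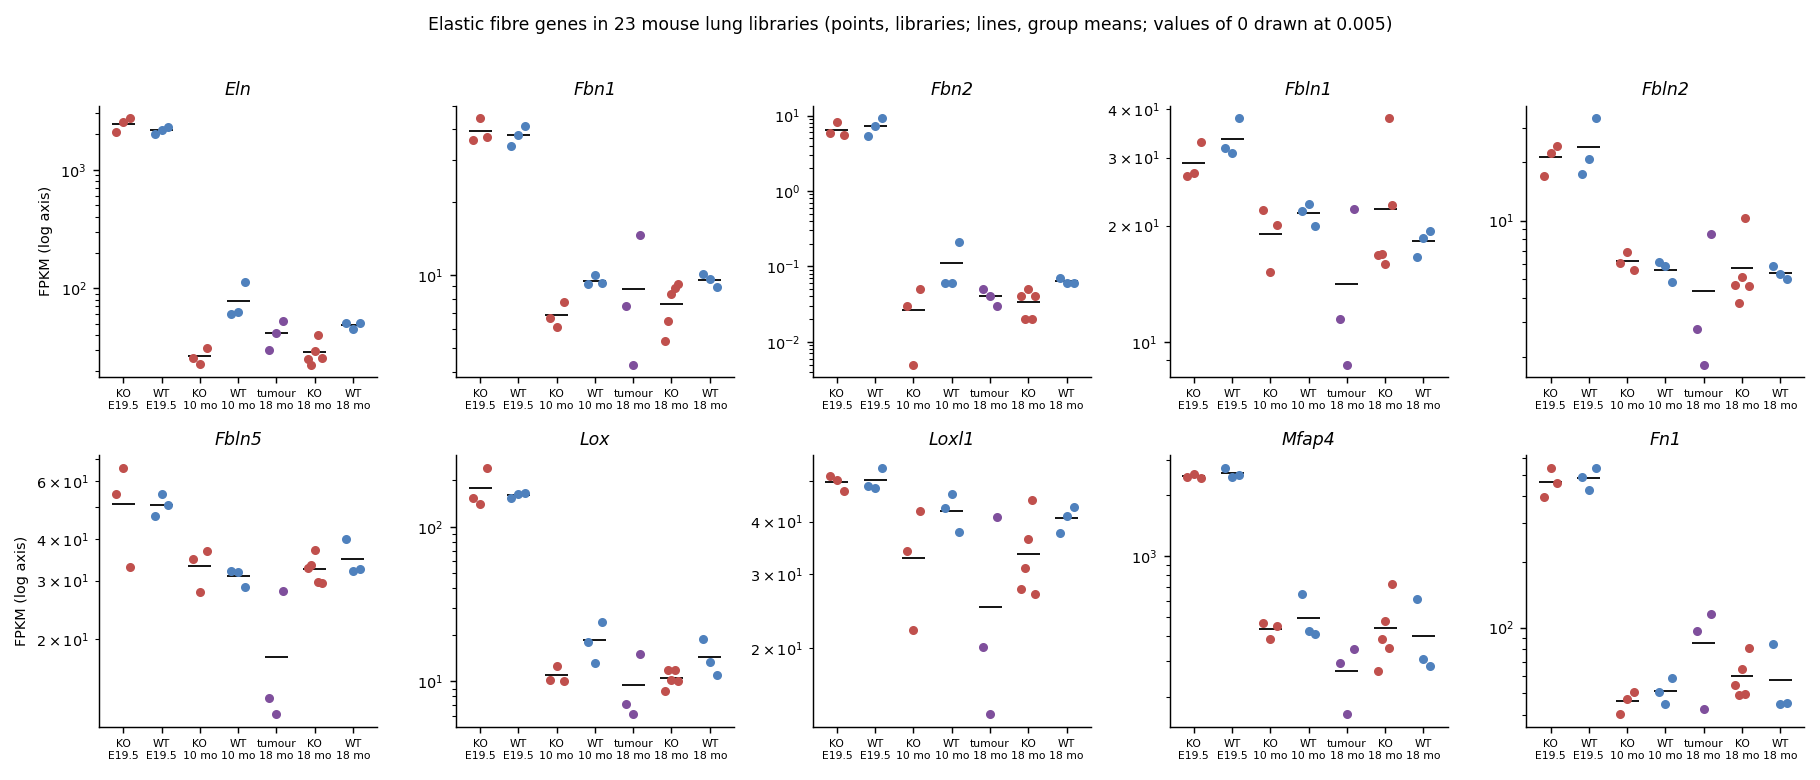
Level of the 10 elastic fibre genes (FPKM, log axis) in each of the 23 libraries. Points are libraries and lines are group means, and Eln lies between 2018 and 2741 FPKM in the 6 embryos and between 22.6 and 112 FPKM in the 17 adult libraries.

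The first question is how the genes differ between adult and late fetal lung of each genotype. Eln (chromosome 5, 134702595 to 134747368, minus strand of GRCm38.p6, with 37 exons in the matched RefSeq transcript) stood at 25.8, 22.9 and 31.1 FPKM in KO lungs at 10 months, against 2099, 2555 and 2741 FPKM in KO embryos. In WT it stood at 60.7, 62.6 and 112 FPKM at 10 months, against 2018, 2180 and 2295 FPKM in embryos. No adult library came near any embryo, and the adult KO libraries all lay below the adult WT libraries. Eln fell by 6.49 ± 0.20 on the log2 scale in KO, or 89.7-fold (adjusted p = 2.48e-07). It fell by 4.73 ± 0.30 in WT, or 26.5-fold (adjusted p = 3.16e-05). Of all genes tested, 29.4% were called lower in KO and 31.2% in WT, so 8 and 9 of 10 lie above these shares. The median log2 fold change of the 10 genes was −2.47 in KO and −2.18 in WT, against 0.00 and −0.00 over all genes tested. The members were chosen with earlier results of these data known, so both comparisons describe the set and test nothing.

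The scaffold genes were lower in the adult as well. Fbn1 (chromosome 2, 125300594 to 125506485, minus strand), for the main protein of microfibrils, stood at 6.68, 6.11 and 7.78 FPKM in KO lungs at 10 months, against 36.3, 44.6 and 37.2 FPKM in KO embryos. In WT it stood at 9.23, 10.0 and 9.30 FPKM at 10 months, against 34.3, 37.9 and 41.5 FPKM in embryos. The ages did not overlap, and Fbn1 fell by 2.47 ± 0.12 on the log2 scale in KO and by 1.94 ± 0.09 in WT (adjusted p = 1.25e-06 in KO and 1.88e-07 in WT). Fbn2, the fibrillin known best from developing tissue, had 9, 1 and 16 counts in KO lungs at 10 months, against 1741, 2106 and 1391 counts in KO embryos. In WT it had 18, 18 and 61 counts at 10 months, against 1551, 1924 and 2270 counts in embryos. Adult lung thus held few reads of Fbn2, and its log2 fold change of −7.73 ± 0.41 in KO and −6.01 ± 0.55 in WT was the largest in size of the 10. Mfap4, for microfibril-associated protein 4, fell by 2.47 ± 0.11 in KO and by 2.33 ± 0.18 in WT, and still had the highest mean level of the 10 genes in every group.

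Fibulins differed among themselves. Fbln2 fell by 1.71 ± 0.16 on the log2 scale in KO and by 2.03 ± 0.29 in WT. Fbln1, for a fibulin found in elastic fibres and basement membranes, fell by 0.56 ± 0.15 in KO and by 0.58 ± 0.10 in WT (adjusted p = 0.0119 in KO and 0.000565 in WT), and in 1 fit over all 23 libraries it was called in neither (0.0893 in KO and 0.0861 in WT). Fbln5 (chromosome 12, 101746565 to 101819119, minus strand), whose protein binds tropoelastin and brings it to microfibrils, stood at 35.0, 27.8 and 36.9 FPKM in KO lungs at 10 months, against 54.7, 65.8 and 33.0 FPKM in KO embryos. In WT it stood at 32.2, 31.9 and 28.7 FPKM at 10 months, against 47.1, 54.8 and 50.9 FPKM in embryos. The ages overlapped in KO, through KO embryo 3, and not in WT. Fbln5 fell by 0.66 ± 0.07 on the log2 scale in WT (adjusted p = 4.37e-05), and its log2 fold change in KO was −0.57 ± 0.24 (adjusted p = 0.0811). Fbln5 was called in KO without KO embryo 3 (adjusted p = 0.00135), by DESeq2 (0.0117) and in the fit over all 23 libraries (0.0454).

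Promoters of Fbn1 and Fbln5 are shown because the genes differ in how far their levels lie apart between ages, by a log2 fold change of −2.47 against −0.57 in KO. Each runs from 250 bases before to 50 bases after a start annotated by RefSeq on GRCm38.p6, on the minus strand, at chr2:125506389-125506688 for Fbn1 and chr12:101819070-101819369 for Fbln5. Capitals mark the GC box (GGGCGG on either strand).
Fbn1: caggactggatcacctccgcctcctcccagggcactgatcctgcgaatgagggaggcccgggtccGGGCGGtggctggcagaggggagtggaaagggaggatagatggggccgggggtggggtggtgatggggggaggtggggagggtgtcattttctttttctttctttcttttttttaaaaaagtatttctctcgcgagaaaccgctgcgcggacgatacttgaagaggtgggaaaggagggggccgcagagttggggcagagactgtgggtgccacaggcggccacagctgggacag
Fbln5: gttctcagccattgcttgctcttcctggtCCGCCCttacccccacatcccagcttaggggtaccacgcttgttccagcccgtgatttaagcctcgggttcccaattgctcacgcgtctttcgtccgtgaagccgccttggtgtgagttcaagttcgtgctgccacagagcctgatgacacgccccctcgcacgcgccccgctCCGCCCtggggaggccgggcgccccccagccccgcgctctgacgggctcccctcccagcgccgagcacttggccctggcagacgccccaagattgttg
The Fbn1 window held 1 GC box and the Fbln5 window 2, and 35.7% of the 32851 promoters of the same length held at least 1. Neither window held TATAAA, which 13.6% of all promoters held, CACGTG (7.15%), TGANTCA (7.81%), TTATGNAA (3.38%) or a CArG box (1.63%), each searched on both strands. A further RefSeq start of Fbln5, at chr12:101818435-101818734, held none of the 6 motifs.

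The cross-linking enzymes split. Lox, for lysyl oxidase, stood at 10.2, 12.6 and 10.1 FPKM in KO lungs at 10 months, against 155, 141 and 241 FPKM in KO embryos. In WT it stood at 18.1, 13.2 and 24.2 FPKM at 10 months, against 154, 162 and 165 FPKM in embryos. The ages were far apart, and Lox fell by 3.98 ± 0.26 on the log2 scale in KO and by 3.07 ± 0.23 in WT. Loxl1, for the related oxidase that mice need to keep elastic fibres in adult tissue, stood at 34.1, 22.0 and 42.3 FPKM in KO and 43.1, 46.6 and 37.7 FPKM in WT at 10 months. In embryos Loxl1 stood at 47.4 to 51.3 FPKM in KO and at 48.1 to 53.8 FPKM in WT. It lay above the highest 10-month lung of each genotype, at 42.3 FPKM in KO and 46.6 FPKM in WT. Its log2 fold change was −0.55 ± 0.21 in KO (adjusted p = 0.0603) and −0.18 ± 0.09 in WT (adjusted p = 0.108), not called. It was called in KO without KO lung 2 or 3 of 10 months (0.0257 and 0.00862), by DESeq2 (0.00825), in the 3 limma fits (0.0374 to 0.0391) and with the replicate block (0.0431). The block pairs libraries by a shared number only. In WT Loxl1 was called without WT lung 2 of 10 months (0.0351) and in 2 of the 3 limma fits (0.0412 and 0.0427). The ratio of Lox to Loxl1, per length, was 0.237 to 0.573 in KO and 0.283 to 0.641 in WT at 10 months, against 2.80 to 5.09 in KO and 3.07 to 3.37 in WT embryos. Fn1, for fibronectin, on which cells assemble early matrix, fell by 3.29 ± 0.16 on the log2 scale in KO and by 3.19 ± 0.13 in WT.

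Together the 10 genes took 0.138% to 0.164% of counts in KO and 0.170% to 0.205% in WT lungs at 10 months, against 1.56% to 1.86% in KO and 1.62% to 1.76% in WT embryos. Markers of lung fibroblasts had a summed level of 411 to 447 FPKM in KO and 477 to 527 FPKM in WT at 10 months, against 1378 to 1580 FPKM in KO and 1459 to 1988 FPKM in WT embryos. Of the 7 fibroblast markers 5 were called lower and 1 higher in KO, and 5 lower and 2 higher in WT. Smooth muscle markers summed to 281 to 297 FPKM in KO and 294 to 387 FPKM in WT at 10 months, against 316 to 351 FPKM in KO and 310 to 614 FPKM in WT embryos, with 2 of 7 called lower and 2 higher in KO and none called in WT. None of these markers was at 0 throughout a group, and the part of either list in the lower levels was not tested. The WT embryos were uneven, with smooth muscle markers at up to 614 FPKM beside a median of 323 FPKM. Squamous epithelium markers reached 553 FPKM in a WT embryo (median 3.20 FPKM), and skeletal muscle markers 267 FPKM (median 71.6 FPKM). Whether a WT embryo sample held tissue from outside the lung was not tested.

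The genotype comparison asks whether loss of Rarres1 goes with a different level of these genes at each age. At E19.5 Eln stood at 2465 ± 330 FPKM in KO and 2164 ± 139 FPKM in WT, with overlapping libraries (log2 fold change 0.20 ± 0.14, 95% interval −0.11 to 0.51). None of the 10 genes was called, none had an unadjusted p under 0.05, and DESeq2 and limma called none. A WT embryo stood out in squamous epithelium markers, as given above, and no member was called when any embryo was left out. The share of all genes called was 0%, with 0.941% at an unadjusted p under 0.05. Log2 fold changes of the other 9 genes lay between −0.19 and 0.18.

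**Figure D2:**
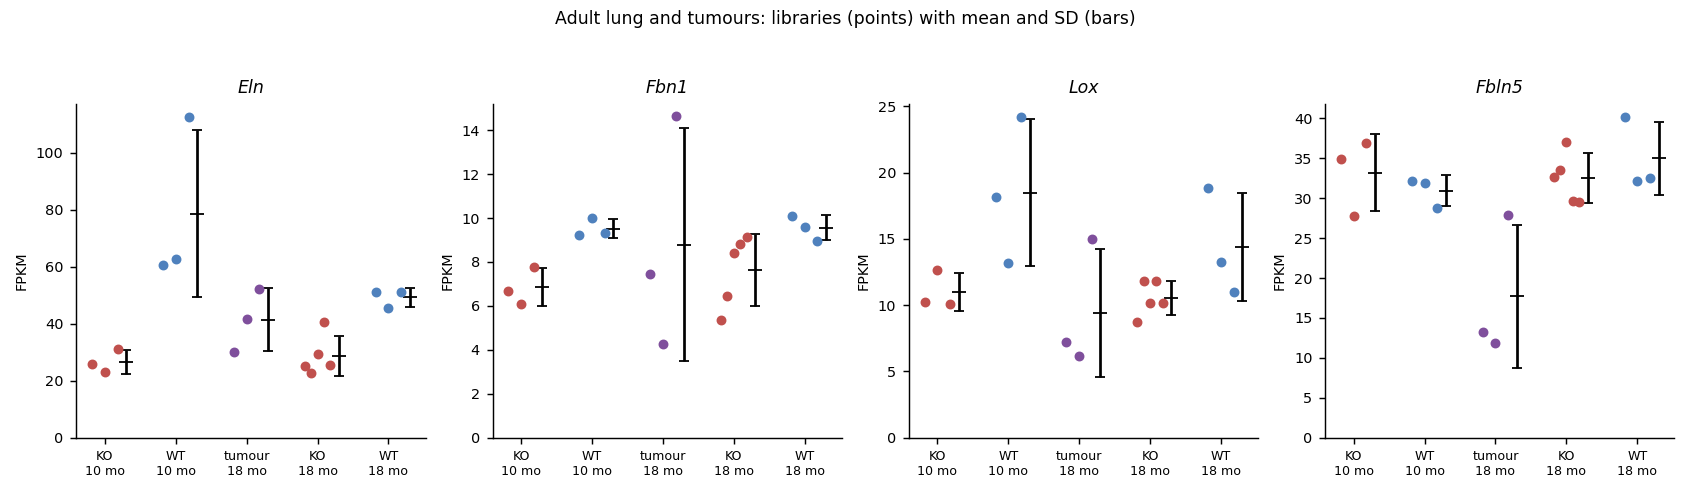
Levels (FPKM) of Eln, Fbn1, Lox and Fbln5 in adult lung and tumours, with points for libraries and bars for the mean and SD of each group. Eln is lower in every KO non-tumour lung than in every WT lung of the same age, at 22.9 to 31.1 against 60.7 to 112 FPKM at 10 months and 22.6 to 40.4 against 45.5 to 51.2 FPKM at 18 months.

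At 10 months Eln stood at 25.8, 22.9 and 31.1 FPKM in KO lungs, against 60.7, 62.6 and 112 FPKM in WT lungs. The genotypes were apart, with WT lung 3 well above the other WT lungs. The log2 fold change was −1.57 ± 0.30, or 2.97-fold lower (95% interval −2.35 to −0.79), at an adjusted p of 0.102. Without WT lung 3 the log2 fold change was −1.22 and the gene was called (adjusted p = 0.0171). It was also called by DESeq2 (0.000201), in the fit over all 23 libraries (0.00255) and with the replicate block (0.0142). That block pairs lungs by a shared number only, with correlations of deviations of −0.438, −0.533 and −0.191. Leaving out any other library gave no call (0.125 to 0.282). Nor did the limma fits (0.0873 to 0.0929), other scaling (0.0988) or no filter (0.135).

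Fbn1 was the 1 member called at 10 months, where 0.946% of all genes were called lower. Its 3 KO libraries, at 6.11 to 7.78 FPKM, lay below its 3 WT libraries, at 9.23 to 10.0 FPKM. Fbn1 fell by 0.48 ± 0.08 on the log2 scale, or 1.39-fold (adjusted p = 0.0305). This call was lost without KO lung 1 (adjusted p = 0.126), KO lung 2 (0.0519), WT lung 1 (0.0626), WT lung 2 (0.0987) or WT lung 3 (0.111), and in the fit over all 23 libraries (0.799). It was also lost in the limma fits (0.0782 to 0.108) and with the replicate block (0.102). The call was kept without KO lung 3 (0.0192), by DESeq2 (9.41e-05), with other scaling (0.0311) and without a filter (0.0182). Ranges of KO and WT did not overlap for 4 of the 10 genes, Eln, Fbn1, Fbn2 and Lox, against 24.1% of all genes.

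Fbn2 had 9, 1 and 16 counts in KO lungs and 18, 18 and 61 counts in WT lungs at 10 months, a log2 fold change of −1.92 ± 0.82 (adjusted p = 0.297). Lox stood at 10.2, 12.6 and 10.1 FPKM in KO and 18.1, 13.2 and 24.2 FPKM in WT, a log2 fold change of −0.74 ± 0.25 (adjusted p = 0.241). Both genes were lower in every KO library than in every WT library, each by a narrow margin. Log2 fold changes of the other 6 genes lay between −0.38 for Loxl1 and 0.15 for Fbln2, with Fbln5, at 33.2 ± 4.82 FPKM in KO and 30.9 ± 1.91 FPKM in WT, at 0.10 ± 0.10. The median of the 10 was −0.28, against −0.00 over all genes. The ratio of Eln to Fbln5 levels was 0.736 to 0.841 in KO and 1.89 to 3.91 in WT libraries.

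Fibroblast markers at 10 months summed to 411, 419 and 447 FPKM in KO lungs and 527, 477 and 505 FPKM in WT lungs, without overlap, and all 7 had a log2 fold change below 0. Pdgfra, the receptor that marks many lung fibroblasts, was the 1 of 7 called (−0.44 ± 0.08, adjusted p = 0.0260), a call lost without KO lung 1 (0.125) or 3 (0.0509) or WT lung 1 (0.0572) or 3 (0.0939). Smooth muscle markers summed to 281, 289 and 297 FPKM in KO and 387, 294 and 380 FPKM in WT, all 7 below 0 and none called. Heart muscle markers varied within both groups, at 97.5 to 855 FPKM in KO and 76.8 to 1365 FPKM in WT. None of these markers was at 0 throughout a group, and their part in the lower Eln and Fbn1 levels was not tested.

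**Figure D3:**
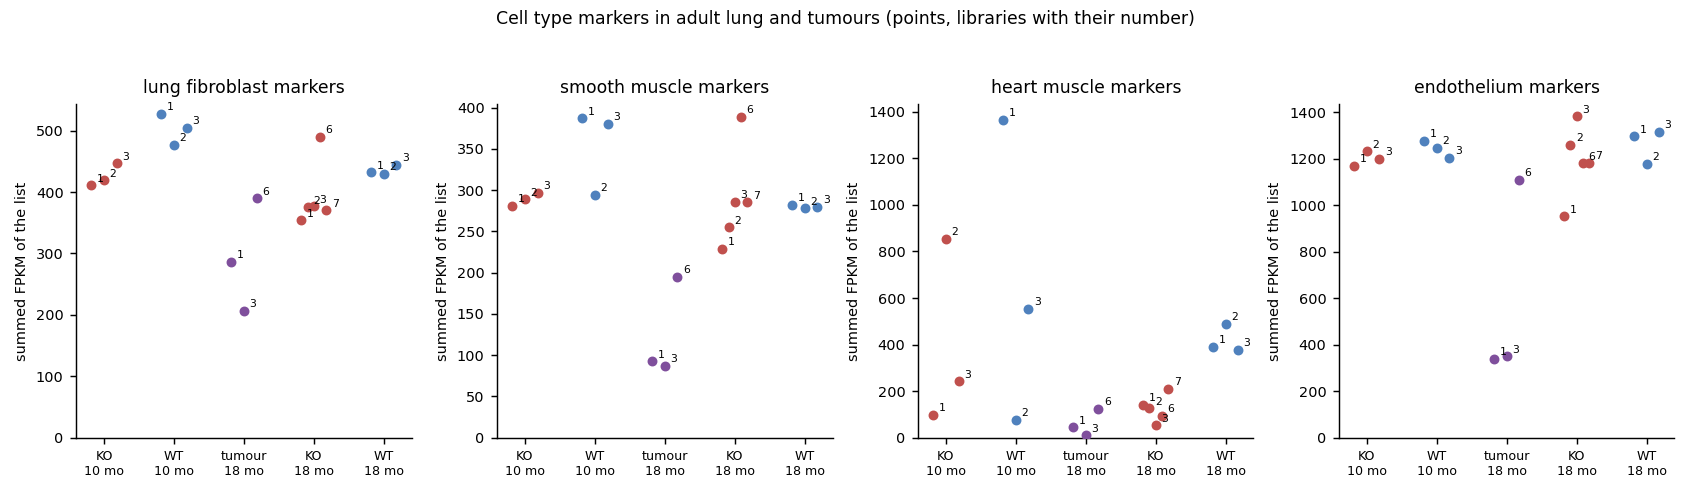
Summed level (FPKM) of fibroblast, smooth muscle, heart muscle and endothelial markers in each adult library, with points numbered by replicate. Fibroblast markers lie at 411 to 447 FPKM in KO and 477 to 527 FPKM in WT lungs of 10 months, and smooth muscle markers at 86.9 to 195 FPKM in tumours and 229 to 389 FPKM in KO non-tumour lungs.

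At 18 months Eln stood at 25.3, 22.6, 29.5, 40.4 and 25.4 FPKM in the KO non-tumour lungs of animals 1, 2, 3, 6 and 7, against 51.1, 45.5 and 51.2 FPKM in WT lungs. All 5 KO lungs lay below the WT lungs, with KO lung 6 nearest to them. The log2 fold change was −0.83 ± 0.17, or 1.77-fold lower (95% interval −1.19 to −0.46), at an unadjusted p of 0.000515 and an adjusted p of 0.149. Without KO lung 6 it was −0.97 and called (adjusted p = 0.0137), and DESeq2 also called it (0.00119). No member was called, where 0.0776% of all genes were, and limma called none. An unadjusted p under 0.05 was found for 4 of the 10 members and for 8.04% of all genes.

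Lox stood at 8.72 to 11.8 FPKM, with a median of 10.2 FPKM over the 5 KO lungs, against a mean of 14.4 ± 4.06 FPKM in WT lungs of 18 months (log2 fold change −0.51 ± 0.17, adjusted p = 0.440). Fbn1 averaged 7.64 ± 1.66 FPKM in KO and 9.56 ± 0.567 FPKM in WT (−0.37 ± 0.16, adjusted p = 0.596). Both overlapped between genotypes. Eln and Fbn2 were the members whose ranges were apart, 2 of 10 against 7.06% of all genes, and both were lower in KO without overlap at 10 and at 18 months, as were 1.03% of all genes. Fbn2 had 12, 6, 26, 5 and 10 counts in KO and 20, 18 and 18 counts in WT lungs of 18 months, which overlap through KO lung 3. Scaled to library size it lay at 0.205 to 0.573 CPM in KO and 0.638 to 0.700 CPM in WT, without overlap. Fibroblast markers summed to 354 to 490 FPKM in KO and 430 to 444 FPKM in WT, with 0 of 7 called. Heart muscle markers were apart, at 52.7 to 211 FPKM in KO and 377 to 490 FPKM in WT, with 6 of 6 tested below 0 and none called, and their part in the Eln difference was not tested.

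The mean of the genotype effects at 10 and 18 months was added after the values at both ages were seen, so it restates them with more libraries. Eln fell by 1.20 ± 0.16 on the log2 scale, or 2.29-fold (95% interval −1.53 to −0.86, adjusted p = 0.00131), and was called under every alternative run, at adjusted p from 9.59e-12 to 0.00867. Of all genes, 0.997% were called lower in this fit, and of the members 2. Lox was the other, with a fall of 0.62 ± 0.15 (adjusted p = 0.0483). That call was lost without WT lung 1 or 3 or any KO lung of 10 months, and without WT lung 1 or 2 or KO lung 1, 3, 6 or 7 of 18 months, with an adjusted p of up to 0.130. Fbn1 was at −0.42 ± 0.10 on the log2 scale, with an adjusted p of 0.0545, and was called without KO lung 1 (0.0319), 3 (0.0482), 6 (0.0396) or 7 (0.0393) of 18 months. Fbn2 was at −1.37 ± 0.42 (adjusted p = 0.125) and Loxl1 at −0.35 ± 0.14 (adjusted p = 0.232), and the other 5 genes lay between −0.08 for Fn1 and 0.09 for Fbln2. In the same fit all 7 fibroblast markers lay below 0, with Pdgfra called (−0.39 ± 0.08, adjusted p = 0.0216). All 6 macrophage markers lay above 0, with Mrc1 called (0.35 ± 0.08, adjusted p = 0.0385). All 7 heart muscle markers, at −1.62 to −0.94, and all 7 smooth muscle markers lay below 0, with none called. The Pdgfra call was lost without WT lung 1 or 3 or KO lung 1 or 2 of 10 months or WT lung 1 of 18 months (adjusted p up to 0.0724). The Mrc1 call was lost without WT lung 1 or 3 or any KO lung of 10 months, or WT lung 2 or 3 or KO lung 3 of 18 months (up to 0.118). The part of these lists in the Eln and Lox values was not tested.

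**Figure D4:**
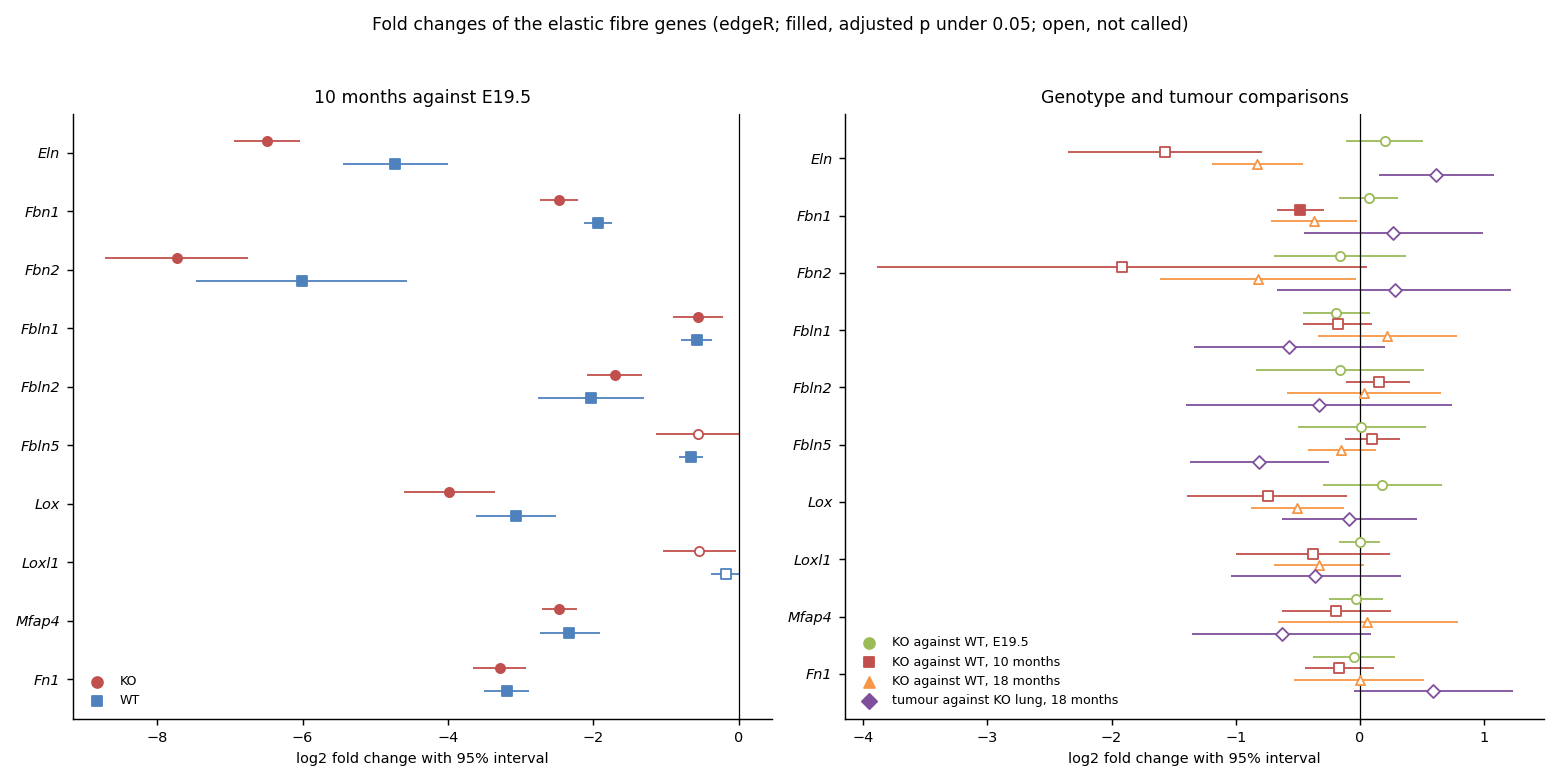
Log2 fold change of each elastic fibre gene, with bars for the 95% interval and filled points where called, for 10 months against E19.5 in KO and WT (left) and for KO against WT and tumour against KO non-tumour lung (right). The Eln value between genotypes is 0.20 at E19.5, −1.57 at 10 months and −0.83 at 18 months, and the intervals of both adult ages lie below 0.

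Whether the genotype effect differed by age was tested directly. For Eln the effect at 10 months minus that at E19.5 was −1.76 ± 0.31 on the log2 scale (95% interval −2.43 to −1.10, adjusted p = 0.0538), just short of a call. It was called without WT lung 1, 2 or 3 of 10 months (adjusted p = 0.0275, 0.0478 and 0.0143) and by DESeq2 (0.000417). No member was called in edgeR, where 0.156% of all genes were, and 3 had an unadjusted p under 0.05, against 7.60% of all genes. The effect at 18 months minus that at 10 months was 0.74 ± 0.31 for Eln (unadjusted p = 0.0322, adjusted p = 1.000). No member was called there by edgeR or DESeq2, 1 had an unadjusted p under 0.05 (2.89% of all genes), and 0% of all genes were called. Fitted alone, the Eln effect at 10 months was −1.57, and −1.22 without WT lung 3.

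Between adult ages Eln stood at 45.5 to 51.2 FPKM in WT at 18 months, against 60.7 to 112 FPKM at 10 months, with no overlap and a log2 fold change of −0.67 ± 0.28 (adjusted p = 0.891). Without WT lung 3 of 10 months, at 112 FPKM, this log2 fold change was −0.32. In KO Eln stood at 22.6 to 40.4 FPKM at 18 months, against 22.9 to 31.1 FPKM at 10 months, fully overlapping (0.07 ± 0.18, adjusted p = 0.947). No member was called in WT or in KO by edgeR, and 0% of all genes were. At an unadjusted p under 0.05 there was 1 member in WT, Fbln1 at −0.24 ± 0.08, against 5.44% of all genes. There was none in KO, against 5.06% of all genes, and DESeq2 called no member in either genotype. Ordered by group mean, Eln ran through KO embryos (2465 FPKM), WT embryos (2164), WT at 10 months (78.6), WT at 18 months (49.2), tumours (41.4), KO at 18 months (28.6) and KO at 10 months (26.6). Neighbours overlapped at 4 of these 6 steps, and were apart between embryos and WT at 10 months and between WT at 10 and 18 months.

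The tumour comparison sets lung tumours of KO mice against KO non-tumour lung. Eln stood at 30.2, 41.8 and 52.3 FPKM in tumours 1, 3 and 6, against 22.6 to 40.4 FPKM in the KO non-tumour lungs, with a median of 25.4 FPKM. Tumours 3 and 6 lay above all 5 lungs and tumour 1 within their range. The log2 fold change was 0.61 ± 0.21 (95% interval 0.15 to 1.08, adjusted p = 0.0821), and Eln was called without tumour 1 (0.82, adjusted p = 0.0442) or KO lung 6 (0.76, adjusted p = 0.0296). Within animals 1, 3 and 6 the tumour had 1.19, 1.42 and 1.29 times the Eln level of the non-tumour lung, higher in 3 of 3.

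Fbln5 went the other way. It stood at 13.3, 11.8 and 27.9 FPKM in tumours 1, 3 and 6, against 32.7, 33.5, 37.1, 29.7 and 29.5 FPKM in KO non-tumour lungs. All 3 tumours lay below the lungs, tumour 6 only just, and this was the 1 of 10 genes whose ranges did not overlap, against 21.7% of all genes. The log2 fold change was −0.81 ± 0.25 (adjusted p = 0.0597), or −1.25 without tumour 6, which was called (adjusted p = 0.000805). Within animals the tumour had 0.406, 0.320 and 0.942 times the non-tumour level.

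No member was called in the tumours by edgeR, where 13.8% of all genes were (2134 genes, or 146 with the animal as a block), and 2 had an unadjusted p under 0.05, as did 29.3% of all genes. DESeq2 called Eln (adjusted p = 0.0333) and Fbln5 (0.0131), and limma called Fbln5. Without tumour 6, Lox (−0.53, adjusted p = 0.0253) and Loxl1 (−0.85, 0.0289) were also called, and without tumour 3 Fn1 was (0.92, 0.0360). Over all genes 4066 were called without tumour 6 and 1074 without tumour 3, against 2134 with every library kept. Fn1 stood at 96.8, 42.6 and 116 FPKM in tumours 1, 3 and 6, against 49.1 to 80.8 FPKM in KO non-tumour lungs, above all lungs in 2 tumours and below all in tumour 3. Mfap4 averaged 269 ± 94.3 FPKM in tumours and 441 ± 175 FPKM in KO non-tumour lungs (log2 fold change −0.63 ± 0.32, adjusted p = 0.226).

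**Figure D5:**
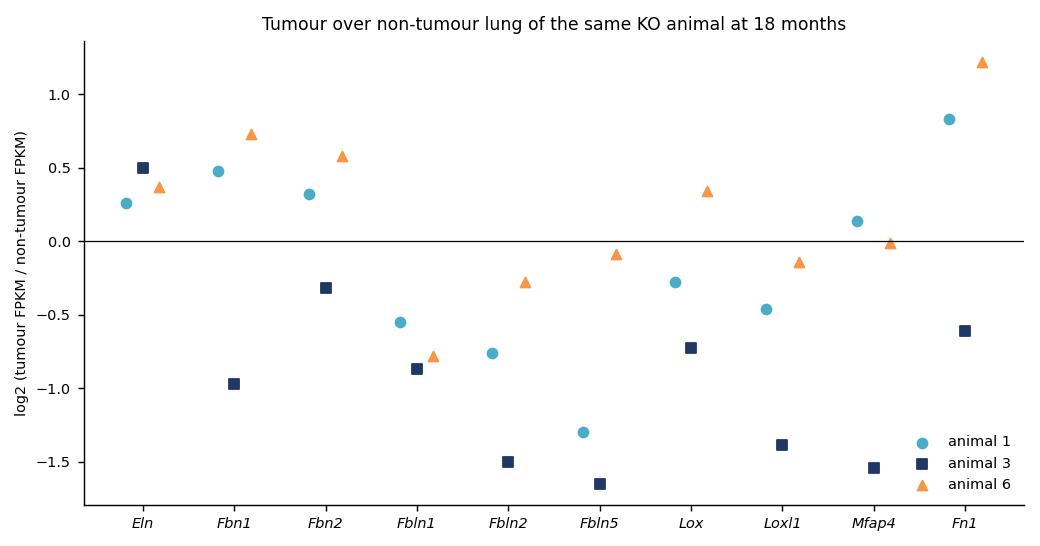
Log2 ratio of the FPKM in the tumour to that in the non-tumour lung of KO animals 1, 3 and 6, a point per animal and gene. Eln is higher in the tumour of all 3 animals, and Fbln1, Fbln2, Fbln5 and Loxl1 are lower in the tumour of all 3.

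The 3 animals differed. In animal 3 the tumour was lower than the non-tumour lung for 9 of the 10 genes, with a median log2 ratio of −0.92, while animals 1 and 6 had 5 higher and 5 lower each, with medians of −0.07 and 0.17. Fbln1 was at 0.683, 0.548 and 0.582 times the non-tumour level in animals 1, 3 and 6, a narrow range. Fn1 was at 1.77, 0.655 and 2.32 times, and Fbn1 at 1.40, 0.510 and 1.65 times, so both went opposite ways between animals.

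Other cell type markers moved in the tumours too, where 7.20% of all genes were called higher and 6.60% lower. Smooth muscle markers summed to 92.7, 86.9 and 195 FPKM in tumours 1, 3 and 6, against 229 to 389 FPKM in KO non-tumour lungs, with 4 of 7 called lower and all 7 below 0. Fibroblast markers summed to 286, 207 and 390 FPKM in tumours and 354 to 490 FPKM in KO non-tumour lungs, with 2 of 7 called lower. Endothelial markers summed to 340, 350 and 1111 FPKM in tumours and 952 to 1383 FPKM in KO non-tumour lungs, with 1 of 6 called lower. Macrophage markers summed to 8624, 1396 and 1485 FPKM in tumours and 486 to 1243 FPKM in KO non-tumour lungs, with 2 of 6 called higher. Tumour 6, nearest to lung in the stromal lists, was also nearest in Fbln5, and none of these markers was at 0 throughout a group. Their part in the tumour values was not tested.

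Against WT lung of 18 months no member was called in the tumours by edgeR, where 15.4% of all genes were, 1 had an unadjusted p under 0.05 (33.7% of all genes), and DESeq2 called Fbln5 alone (adjusted p = 0.0155). Fbln5 averaged 17.7 ± 8.91 FPKM in tumours and 35.0 ± 4.53 FPKM in WT (−0.95 ± 0.31, adjusted p = 0.0859). Eln lay at 30.2 to 52.3 FPKM in tumours and 45.5 to 51.2 FPKM in WT (log2 fold change −0.21 ± 0.19, adjusted p = 0.474), with overlapping libraries. Without tumour 6, 5 members were called lower than in WT, namely Fbln1 (adjusted p = 0.00930), Fbln2 (0.00897), Fbln5 (0.00198), Lox (0.0276) and Loxl1 (0.00502). Over all genes 5722 were called in that fit, against 2358 of 15346 with tumour 6 kept, so calls rose far beyond the members. Tumours share their reference lungs with the genotype comparisons.

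Of the other genes of the pathway, 16 further assembly genes, 8 elastin-degrading proteases (7 tested at E19.5), 6 tested inhibitors of these, 10 integrins and 11 TGF-beta pathway genes were examined. None was called between KO and WT at E19.5, 10 months or 18 months, while 4 assembly genes, 3 proteases, 0 inhibitors, 1 integrin and 5 TGF-beta genes had an unadjusted p under 0.05 at 10 months, as did 17.4% of all genes. At E19.5 this held for 1 assembly gene, and at 18 months for 3 assembly genes, 2 proteases, 2 integrins and 1 TGF-beta gene (8.04% of all genes). For the mean adult effect 1 was called, Loxl4, a lysyl oxidase relative, which rose by 0.64 ± 0.15 on the log2 scale (adjusted p = 0.0412), where 0.767% of all genes were called higher. That call was lost without WT lung 1 or 3 or any KO lung of 10 months, and without any WT lung or KO lung 1 of 18 months (adjusted p up to 0.107).

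With age the assembly list split, with 5 called higher and 8 lower of 16 in KO at 10 months against E19.5, and 3 higher and 8 lower in WT. Of all genes 31.1% were called higher and 29.4% lower in KO, and 31.6% and 31.2% in WT. Efemp1, for fibulin-3, averaged 93.7 FPKM in WT at 10 months and 15.5 FPKM in WT embryos, and rose by 2.65 ± 0.08 on the log2 scale. Mfap2, for a microfibril glycoprotein, fell by 1.78 ± 0.11 in KO and by 1.81 ± 0.08 in WT. Among proteases 4 were called higher and 2 lower of 8 in KO, and 5 and 2 in WT. Mmp14, a membrane-bound metalloprotease, fell by 2.38 ± 0.12 in KO, and Ctsk, for cathepsin K, rose by 3.06 ± 0.11 in KO. All 4 called inhibitors of 6 were higher in each genotype, among them Timp2, which rose by 1.80 in KO and 1.70 in WT. Integrins split as 4 higher and 4 lower of 10 in KO and 3 and 4 in WT, and TGF-beta genes as 2 higher and 5 lower of 11 in both.

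In tumours against KO non-tumour lung 1 of the 16 assembly genes was called higher and 1 lower. Of all genes 7.20% were called higher and 6.60% lower, so these counts are near the shares of all genes. Thsd4, for a protein that promotes fibrillin assembly, averaged 14.6 ± 5.24 FPKM in tumours and 7.05 ± 1.35 FPKM in KO non-tumour lungs (1.16 ± 0.26, adjusted p = 0.0200), and was not called without tumour 3 (0.83, adjusted p = 0.0723). Efemp1 averaged 38.7 ± 17.6 FPKM in tumours and 83.0 ± 8.84 FPKM in KO non-tumour lungs (−1.04 ± 0.23, adjusted p = 0.0191), and was not called without tumour 1 (adjusted p = 0.0681) or 3 (0.0897). Mmp12, the elastase of macrophages, stood at 118, 12.3 and 6.91 FPKM in tumours 1, 3 and 6, against 2.15 to 3.43 FPKM in KO non-tumour lungs. Tumour 1, with the highest sum of macrophage markers, lay far above the rest, and the log2 fold change of 4.25 ± 0.79 (adjusted p = 0.00995) was 2.01 without it (adjusted p = 0.00442). Mmp9 fell by 1.35 ± 0.36 (adjusted p = 0.0376), a call lost without tumour 1 (0.105) or any 1 of the 5 KO lungs (0.0593 to 0.0747). Integrins Itga9 and Itgav rose by 1.29 ± 0.23 and 0.48 ± 0.09 on the log2 scale. With the animal as a block none of these 6 genes was called (adjusted p = 0.0586 to 0.136).

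The genes most like Eln over the 23 libraries were ranked by the root mean square difference of their log2(CPM + 1), centred on the gene's mean, among 14549 genes. Fbn2 came first at 0.419, then Agt (0.450), Cacna1g (0.487), Col25a1 (0.576), Adamts17 (0.594) and Igf2 (0.630), where the spread of Eln itself was 2.61. With 0.1 added in place of 1, a choice made after the ranks were seen, none of these genes stayed among the nearest 6. The nearest were then Pgbd5, Igf2bp3, Camk1g, Frrs1l, Lrrn1 and Cpa1, so the whole list depends on the number added. Fbn2 came 19th at 0.694, so its place rests on how its few adult counts are treated. Of the other members, with 1 added, Lox was 31st, Fn1 86th, Mfap4 136th and Fbn1 191st. With 0.1 added they were 64th, 156th, 222nd and 281st. After group means were removed the nearest were Tex11 (0.163), Bgn (0.167), Rps4l (0.174), Zfp9 (0.184), Fam20a (0.187) and Slc12a4 (0.187), with an Eln spread of 0.241. The nearest member was Fbn2 at rank 2931, with a difference of 0.253, larger than the spread of Eln itself, so no member followed Eln within groups by this measure.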

How the data were processed

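Lung RNA of 23 libraries was analysed from 2 deposited tables of gene values. Per the submitters' processing notes, which give no role or order, Trimmomatic 0.36, STAR 2.5.2b and RSEM 1.3.0 were used with mm10. The deposited expected counts of the authors, one column per library, were rounded to whole numbers and fitted with edgeR 4.0.16 (R 4.3.3, TMM scaling, filterByExpr, robust quasi-likelihood test). The FPKM values are the authors' own, with no change. A fit used only the groups it compares, p-values were adjusted over all genes tested, and intervals are 95%. Alternatives were DESeq2 1.42.0, other scaling, no filter, 1 fit over all libraries, limma 3.58.1 on log2(FPKM + 0.1) or log2(FPKM + 1), a replicate block, and leaving out each library. Fits were tested on simulated data.

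Members and gene lists were chosen with earlier results of these data known. All members are named in every comparison, and from each other list up to 4 called genes with the smallest adjusted p were eligible. Animal codes pair tumour and non-tumour lung of animals 1, 3 and 6 (correlations of deviations 0.465, 0.00494 and 0.0588). Elsewhere numbers did not pair samples. No 2 replicates were near copies. Figures were drawn with matplotlib 3.10.9 in Python 3.11.15.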

Additional observations from a re-analysis of the deposited data

Results flagged for a closer look

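Fbln2 stood at 10.3 FPKM in KO non-tumour lung 6 of 18 months, far above the other 4 KO lungs, which lay at 3.75 to 5.14 FPKM. It was the 1 value that stood apart of the 10 groups looked at in this way, and chance alone sets apart about 1 group in 20. The same lung also had the highest Eln, Fbln1 and Loxl1 levels of its group.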

How the results depend on the processing

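Of 1944 log2 fold changes of the 10 genes under the alternatives, 1752 kept their direction and their side of the threshold, 54 became called, 29 lost a call, 109 changed sign with no call on either side, and none that was called reversed. For KO against WT at 10 months the 1 member called became 2 with DESeq2 and 0 with limma on log2(FPKM + 0.1), on log2(FPKM + 1) and without a filter, and 0 to 1 when a library was left out. At 18 months the count of 0 became 1 with DESeq2 and was 0 to 1 when a library was left out. For tumours against KO non-tumour lung the count of 0 became 2 with DESeq2 and in 1 fit over all 23 libraries, 1 in each of the 3 limma fits, and 0 to 3 when a library was left out. Over all genes 1074 to 4066 were called there with a library left out. For tumours against WT lung the count of 0 became 1 with DESeq2 and in the fit over all libraries, 4 with the replicate block, and 0 to 5 when a library was left out. In that block tumour 6 and WT lung 2 have no partner, so the fold change rests on the tumours and WT lungs numbered 1 and 3. Over all genes 2245 were called with the block, and 3 to 5722 with a library left out. For the effect at 10 months minus that at E19.5 the count of 0 became 1 with DESeq2 and with the replicate block, and was 0 to 1 when a library was left out. The mean adult effect had 2 members called, 1 without a filter on low counts, in the fit over all libraries and in each limma fit, and 1 to 2 when a library was left out. Between 10 months and E19.5 the 8 members called lower in KO were 10 with DESeq2, 9 with limma and the block, and 8 to 9 with a library left out. The 9 in WT were 10 in 2 limma fits, 8 in the fit over all libraries, and 9 to 10 with a library left out. The cause of these changes was not tested.

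With the replicate block, KO against WT at 10 months had 1 member called, Eln (adjusted p = 0.0142), in place of Fbn1 (0.102). The pairing by replicate number is a shared number only, outside tumour against KO non-tumour lung, as correlations of deviations at 10 months were −0.438, −0.533 and −0.191. With the animal as a block, 0 members were called in tumours against their non-tumour lung. Adult counts of Fbn2, at 1 to 61 per library, limit what can be said of it.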
